A study of Mus musculus with 6 samples.

Results

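The complement and coagulation genes are 40 genes of liver-made plasma proteases, their cofactors, substrates and soluble regulators: 18 of the complement system and 22 of coagulation, fibrinolysis and the contact system. They were chosen by gene symbol from 24411 genes of a mouse liver expression table, and protease inhibitors of the serpin family were left out. All 40 members had a row in the table, and all 40 reached the minimum mean of 0.5 TPM (a length-corrected share of all transcripts, scaled to the same total in every library) that 12539 genes passed for testing.

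Bulk mRNA sequencing gave 3 control liver libraries, whose genotype the labels give as WT, and 3 liver libraries labelled Alb-Cre+/+;Sox9 flox/flox (Sox9 cKO, here also called knockout). Cre recombinase under the albumin promoter removes the floxed Sox9 gene in liver epithelial cells, that is, in hepatocytes and in bile duct cells that arise from albumin-expressing precursors. Neither Cre nor a floxed allele is given for the control group, C57BL/6J is one of the strains the study names, and neither age nor sex is given for any animal. The labels do not say that each library came from a separate animal, so p-values measure the spread between these 3 and 3 libraries. The sex-linked transcripts given below differ among the control libraries, which therefore came from at least 2 animals, while for the knockout libraries the spread may be technical. The design sets livers with Sox9, a transcription factor gene of bile duct cells, deleted in liver epithelial cells, against livers labelled wild type.

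Complement and coagulation are proteolytic cascades of the blood plasma, and hepatocytes make most of their components. Complement is started by antibody or by surface sugars, converges on cleavage of C3, and ends in a membrane-inserted pore built from C5b, C6, C7, C8 and C9. Coagulation converges on thrombin, which turns fibrinogen into fibrin, and plasmin later dissolves the clot. Many of these genes are also acute phase genes, whose transcription in hepatocytes rises with interleukin 6 signalling through STAT3 and C/EBP factors.

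Of the 18 complement genes, 5 were lower in knockout livers at an adjusted p under 0.05 (limma, Benjamini-Hochberg adjusted over all tested genes) and 1 was higher. The 5 were C3, Cfb, C4b, Mbl2 and Masp1, which encode the central component, a convertase protease, a convertase component, a sugar-binding recognition protein and its protease. The gene that rose was C8b, a subunit of the membrane pore. Among all 12539 tested genes, 8.76% were called lower and 0.821% higher, so calls to the lower side were the common direction in this comparison. None of the 22 coagulation genes passed the test in either direction, although in 16 of them every knockout library lay below every control library, as in 33.7% of all tested genes.

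The promoters of the members on which these results turn are shown first, because the pore gene that rose, the complement genes that fell and the fibrinogen genes can be compared letter by letter. RefSeq promoter windows of GRCm38.p6, running from 250 bases before to 50 bases after the transcription start, were matched by symbol for 31 of the 40 members. C2, C4a, C4b, Cfb, Cfi, Kng1, Masp1, Plg and Proc had no matched entry. Capitals mark matches to motifs of liver factors searched on both strands, which were HNF1 (GTTAATNAT), STAT (TTCNNNGAA), C/EBP (TTGCNNAA or TTNNGCAA) and HNF4 (CAAAGTCCA). No matched motif overlapped another in the windows shown. The windows are C3 at chr17:57228087-57228386 on the minus strand, Mbl2 at chr19:30232678-30232977 on the plus strand, C8b at chr4:104766067-104766366 on the plus strand, Fga at chr3:83025903-83026202 on the plus strand, Fgb at chr3:83049814-83050113 on the minus strand and Fgg at chr3:83007474-83007773 on the plus strand.
C3: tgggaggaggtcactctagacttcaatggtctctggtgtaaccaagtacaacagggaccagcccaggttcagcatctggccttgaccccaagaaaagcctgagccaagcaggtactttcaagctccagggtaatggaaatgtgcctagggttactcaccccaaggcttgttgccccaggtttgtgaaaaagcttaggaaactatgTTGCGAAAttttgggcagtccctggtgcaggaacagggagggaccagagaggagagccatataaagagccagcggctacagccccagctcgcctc
Mbl2: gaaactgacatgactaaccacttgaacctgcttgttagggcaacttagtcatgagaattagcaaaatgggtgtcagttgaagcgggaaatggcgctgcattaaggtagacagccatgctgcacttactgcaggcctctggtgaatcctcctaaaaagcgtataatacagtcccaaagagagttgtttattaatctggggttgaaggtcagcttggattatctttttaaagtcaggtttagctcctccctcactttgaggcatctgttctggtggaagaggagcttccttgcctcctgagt
C8b: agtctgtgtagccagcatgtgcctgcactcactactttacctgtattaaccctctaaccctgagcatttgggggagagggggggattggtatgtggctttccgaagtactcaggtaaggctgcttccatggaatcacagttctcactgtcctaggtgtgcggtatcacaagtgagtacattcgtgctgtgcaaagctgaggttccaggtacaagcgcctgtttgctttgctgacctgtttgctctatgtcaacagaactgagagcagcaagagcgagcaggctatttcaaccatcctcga
Fga: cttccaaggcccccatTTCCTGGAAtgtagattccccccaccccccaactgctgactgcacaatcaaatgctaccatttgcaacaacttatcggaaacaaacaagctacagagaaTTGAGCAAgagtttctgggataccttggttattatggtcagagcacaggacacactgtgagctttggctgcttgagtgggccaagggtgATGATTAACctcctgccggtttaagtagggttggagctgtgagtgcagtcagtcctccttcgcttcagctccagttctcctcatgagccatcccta
Fgb: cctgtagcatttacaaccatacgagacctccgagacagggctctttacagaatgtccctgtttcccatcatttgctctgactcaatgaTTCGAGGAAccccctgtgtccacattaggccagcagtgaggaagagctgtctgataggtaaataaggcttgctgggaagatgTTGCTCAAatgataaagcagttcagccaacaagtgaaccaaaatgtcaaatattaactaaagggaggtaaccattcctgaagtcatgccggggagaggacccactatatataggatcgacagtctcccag
Fgg: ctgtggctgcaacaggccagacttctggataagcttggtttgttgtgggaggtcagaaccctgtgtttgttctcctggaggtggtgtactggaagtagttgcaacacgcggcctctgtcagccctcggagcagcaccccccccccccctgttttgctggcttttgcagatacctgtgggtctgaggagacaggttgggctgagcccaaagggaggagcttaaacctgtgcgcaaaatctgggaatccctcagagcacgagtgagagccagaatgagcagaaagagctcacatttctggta

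In the C3 window, which belongs to a gene that fell, the capitals mark 1 C/EBP match 45 bases before the start. The Mbl2 and C8b windows, of a gene that fell and of the gene that rose, held none of the 4 motifs. Among the fibrinogen genes, Fga held an HNF1, a STAT and a C/EBP match, Fgb held a STAT and a C/EBP match, and Fgg held none. Over the 31 members the HNF1 letters were found in 4 windows (12.9%), those of C4bp, F13b, Fga and Hc, against 263 of 32851 promoters of the same length in the whole table (0.801%). STAT letters were found in 8 member windows (25.8%) and in 8.30% of all promoters, and C/EBP letters in 10 member windows (32.3%) and in 10.8% of all promoters. HNF4 letters were found in 0 member windows and in 0.475% of all promoters. Each member had 1 window, the one nearest its annotated gene start. The 32851 promoters were not limited to 1 a gene, so the shares are not like for like. The F8 window lay 2574 bases and the C1ra window 216 bases from the annotated start. These matches describe the letters of the windows and were not tested as binding sites.

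The libraries differed in sex-linked transcripts, and this touches every result that follows. Xist, the RNA of the inactive X chromosome, reached 114 TPM in the first and 123 TPM in the second control replicate and at most 0.02 TPM in the other 4 libraries. Eif2s3y, a Y-linked gene, was at 51.6 TPM in control replicate 3 and between 47.6 and 49.9 TPM in the knockout libraries, and at most 0.07 TPM in control replicates 1 and 2. Genotype and sex-linked transcripts therefore changed together in part. Values against control replicate 3 alone are given for the called members, and as counts for the complement and coagulation members. Calls with a sex-marker term are given for the members, the other complement and coagulation genes and Sox9. Neither is given for the fold change of each member not called. The same holds for the cell type markers, transcription factors and receptors, acute phase genes and serpins. Sox9 was at 1.69, 1.43 and 1.43 TPM across the controls and 0.19, 0.40 and 0.68 TPM in the knockout libraries, which did not overlap. Limma gave Sox9 a log2 fold change of -1.16 ± 0.25 (SE, adjusted p = 0.0323), and the exact permutation test (two-sided) returned 0.1, the smallest p that 3 against 3 libraries allow. Between 15266 and 15506 genes were above 0 TPM in control libraries and between 14649 and 14991 in knockout libraries. Because TPM keeps no read depth, depth is unknown and no counting interval was computed.

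Cell type markers were checked beside the members. The summed TPM of 7 hepatocyte markers was 128215 to 136129 in control and 97358 to 110168 in knockout libraries, with 0 of 7 called by limma and 0 at an unadjusted p under 0.05. Alb made up most of this sum, at 100900 to 110461 against 74907 to 82381 TPM, and the other 6 markers summed to 25668 to 27314 against 22451 to 27787 TPM, which overlapped. Kupffer cell markers summed to 328 to 551 TPM against 99.7 to 241, with 4 of 7 called lower, and stellate cell markers to 122 to 139 against 68.4 to 109, with 4 of 6 called lower. Neutrophil markers summed to 29.6 to 73.1 against 1.42 to 7.92 TPM, with 3 of 3 tested called lower (S100a8, S100a9 and Retnlg), of which S100a9 and Retnlg were listed at 0 in at least 1 library. Sinusoidal endothelial markers summed to 168 to 189 against 106 to 149 TPM (2 of 7 lower), bile duct markers to 65.9 to 115 against 44.7 to 66.5 (1 of 5 tested lower) and platelet markers to 4.62 to 12.7 against 2.35 to 4.41 (2 of 3 tested lower). The bile duct markers Cftr and Sctr were listed at 0 in some libraries and were not tested, and the platelet markers Ppbp and Gp9 were also listed at 0 in some. Beside these counts, 8.76% of all tested genes were called lower. In bulk liver, fewer cells of a type and less RNA per cell cannot be told apart. The part of these differences in the results on the members was not tested.

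**Figure D1:**
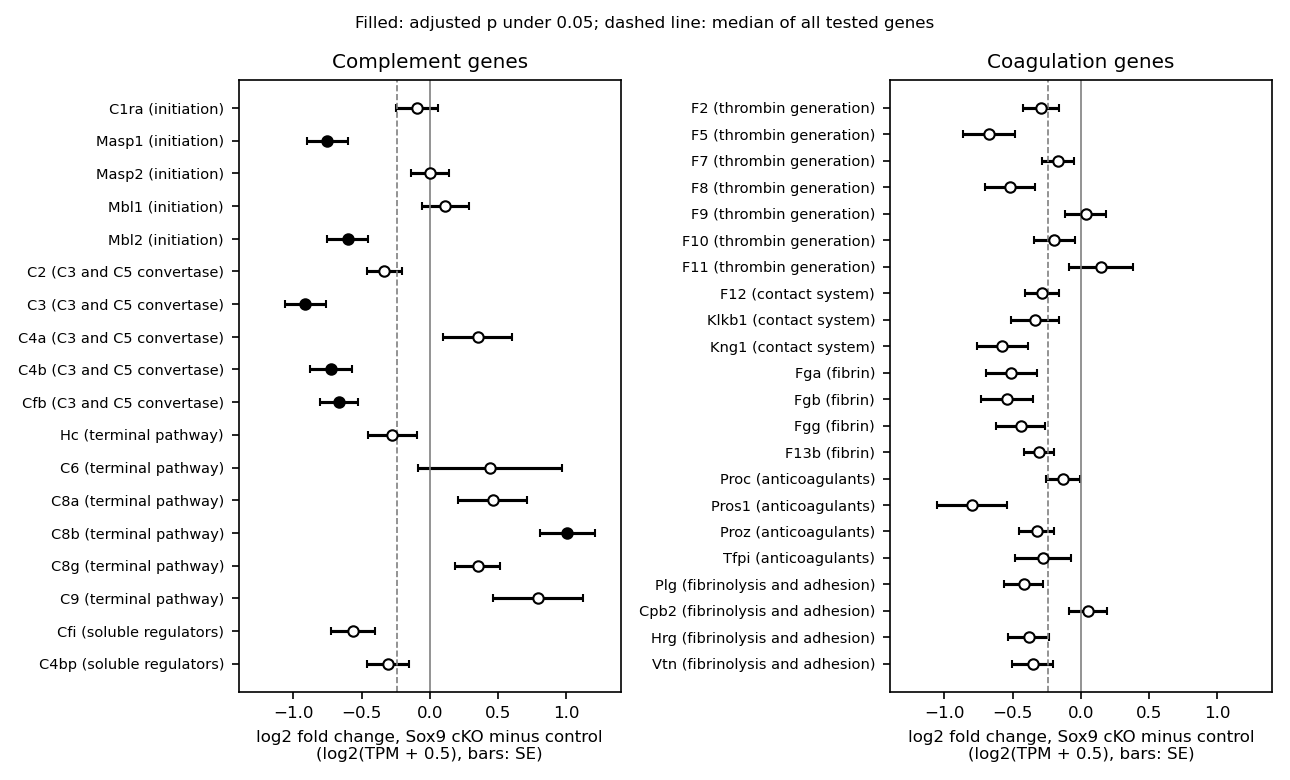
Fitted log2 difference (knockout minus control, of TPM + 0.5) of the 40 members by role, with bars of 1 SE, filled points for genes past the threshold and a dashed line at the median of all tested genes (-0.24). C8b lies farthest to the right at 1.01 and C3 farthest to the left at -0.91, and most coagulation genes lie to the left of 0.

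Across all tested genes the median log2 fold change was -0.24. The complement genes had a median of -0.18, with 10 of 18 below 0 and 8 above. The coagulation genes had a median of -0.33, with 19 of 22 below 0 and 16 of 22 below the median of all genes. Median centring of each library raised the median of all genes to 0.04, that of complement to 0.09 and that of coagulation to -0.05. Under quantile normalization the complement median was -0.14, and under rescaling without the 50 most abundant genes -0.13. Its sign therefore changed under median centring and not under these other scalings. Under median centring the calls over all genes were 146 higher and 256 lower, against 103 higher and 1099 lower with TPM as deposited, and under quantile normalization 120 higher and 215 lower. Among complement genes median centring called 1 higher and 0 lower and quantile normalization 0 higher and 2 lower, against 1 higher and 5 lower.

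The initiating proteins of complement differed among themselves. Mbl2 encodes mannose-binding lectin C, which recognises microbial sugars (chromosome 19, 30232942 to 30239687). It was measured at 1167, 1256 and 1050 TPM across the controls and 791, 664 and 838 TPM in the knockout libraries. The highest knockout library, replicate 3, lay below the lowest control library. For this and the other called members, which were picked by small adjusted p, such separation is no further support. The means were 1158 ± 104 and 764 ± 89.9 TPM (SD, n = 3 each), 66.0% of control, with a log2 fold change of -0.60 ± 0.15 (SE; limma adjusted p = 0.0468).

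Mbl1, the paralogue that encodes mannose-binding lectin A, was measured at 343, 404 and 329 TPM in controls against 394, 318 and 461 TPM in knockout libraries. These groups overlapped, and the log2 fold change was 0.12 (limma adjusted p = 0.680). The ratio of Mbl2 to Mbl1 within a library was 3.11 to 3.40 in control and 1.82 to 2.09 in knockout livers, without overlap. This ratio and the others below were chosen after the values were seen and carry no test.

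Masp1 encodes a serine protease that travels with the lectins and, by other splice forms, gives a protease of the alternative pathway (chromosome 16, 23449417 to 23520815). It was measured at 56.3, 51.3 and 53.7 TPM in controls against 29.5, 27.9 and 38.8 TPM in knockout libraries. All knockout libraries lay below all controls, and the means of 53.8 ± 2.53 and 32.1 ± 5.85 TPM gave a log2 fold change of -0.75 ± 0.15 (limma adjusted p = 0.0263). Masp2, the protease that cleaves C4 and C2 after lectin binding, was at 281 to 310 TPM in controls against 249 to 316 TPM in knockout libraries, with a log2 fold change of 0.00 (limma adjusted p = 0.995). C1ra, a protease of the classical pathway, was at 217 to 250 and 201 to 270 TPM. Its value is uncertain because 40.1% of the 75-base stretches of its transcript are shared with C1rb, among which a read of that length cannot be placed.

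**Figure D2:**
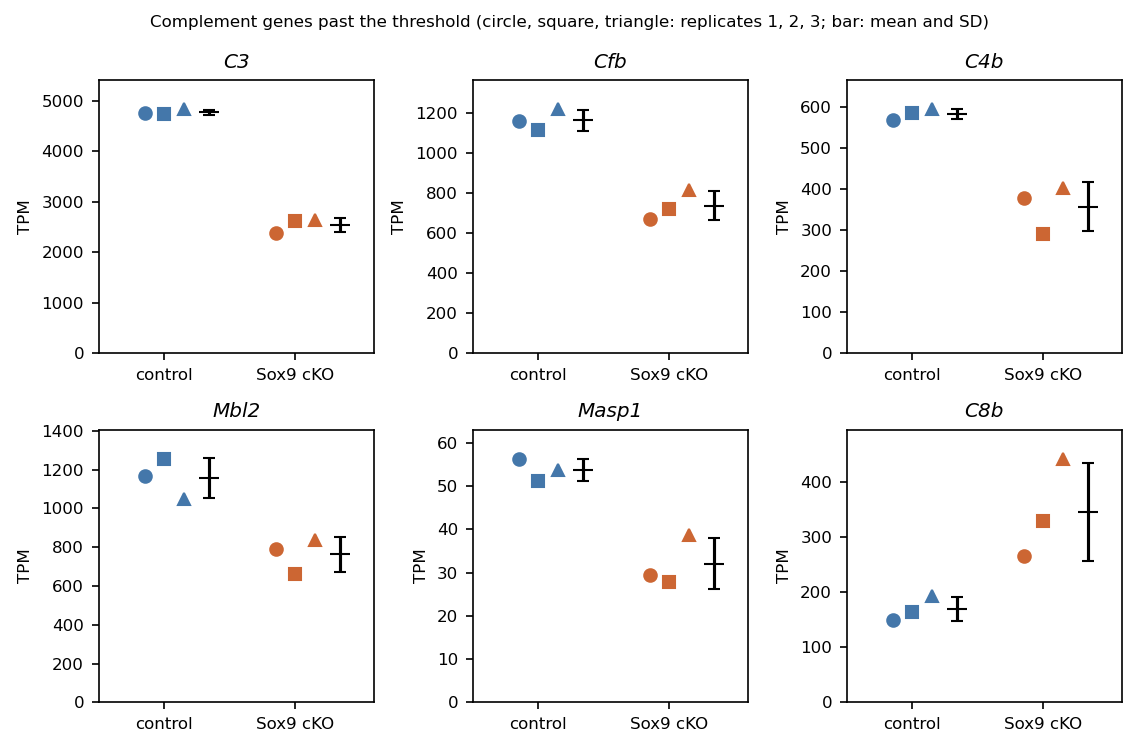
TPM in each library of the 6 complement genes past the threshold, with the mean and SD of 3 libraries a group. In each panel the 3 knockout libraries lie on one side of the 3 controls, above them for C8b and below them for the other 5 genes. Of all tested genes, 33.7% were separated with the knockout libraries below and 3.79% with them above. The 6 genes were picked by small adjusted p, so their separation is no further support.

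The genes of the C3 and C5 convertases, the enzymes that cut C3 and C5, gave 3 of the 5 lower calls. C3 encodes the protein on which all complement pathways converge (chromosome 17, 57203970 to 57228136). It was measured at 4755, 4737 and 4836 TPM in controls against 2375, 2617 and 2630 TPM in knockout libraries. The 3 controls lay close together, and every knockout library was far below them. The means of 4776 ± 53.0 and 2541 ± 144 TPM (53.2% of control) gave a log2 fold change of -0.91 ± 0.15 (limma adjusted p = 0.0165). C3 took 0.478% of all TPM in control and 0.254% in knockout livers.

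Cfb, complement factor B, is the protease precursor of the alternative pathway convertase (chromosome 17, 34856374 to 34862518). Its values were 1161, 1117 and 1220 TPM in control and 673, 722 and 815 TPM in knockout libraries. The groups did not overlap, and the means of 1166 ± 52.1 and 737 ± 72.3 TPM gave a log2 fold change of -0.67 ± 0.14 (limma adjusted p = 0.0288).

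C4b encodes complement C4, cleaved by the classical and lectin pathway proteases (chromosome 17, 34728380 to 34743882). It was measured at 568, 585 and 593 TPM in controls against 377, 289 and 401 TPM in knockout libraries. Again the groups did not overlap, and the means were 582 ± 12.8 and 356 ± 59.1 TPM, with a log2 fold change of -0.72 ± 0.15 (limma adjusted p = 0.0313). Its near copy C4a, known in mice as sex-limited protein, was at 0.97, 0.99 and 0.56 TPM in controls against 0.86, 1.58 and 1.20 TPM in knockout libraries, with a log2 fold change of 0.35 (limma adjusted p = 0.381). Of the 75-base stretches of the C4b transcript, 23.5% are also in C4a, so the division of reads between the pair is uncertain.

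C2, the convertase protease of the classical and lectin pathways, was at 109, 92.0 and 118 TPM in controls against 83.1, 81.9 and 86.8 TPM in knockout libraries. All knockout values lay below all controls, but the log2 fold change of -0.33 did not pass the test (limma adjusted p = 0.134). C2 and Cfb lie 0.086 kb apart on chromosome 17, and the ratio of Cfb to C2 was 10.3 to 12.1 in control and 8.10 to 9.40 in knockout libraries. A predicted readthrough model, Gm20547, shares 81.2% of the stretches of Cfb and 55.6% of those of C2, which makes the division of reads between them uncertain. The 5 convertase genes together summed to 6531 to 6769 TPM in control and to 3509 to 3935 TPM in knockout libraries.

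The terminal pathway, which builds the membrane pore, was the role group whose median lay above 0, at a log2 fold change of 0.45 with 5 of 6 genes above 0. Its sum was 1483 to 1685 TPM in control and 1921 to 2695 TPM in knockout libraries. This median stayed above 0 in all alternative settings, from 0.30 to 0.84. C8b, the beta subunit of C8, was the member called (chromosome 4, 104766317 to 104804548). It was measured at 150, 164 and 193 TPM in controls against 266, 329 and 442 TPM in knockout libraries. The lowest knockout library was above the highest control, and the means were 169 ± 22.2 and 345 ± 89.3 TPM, with a log2 fold change of 1.01 ± 0.20 (limma adjusted p = 0.0263).

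C8a, which encodes the alpha subunit and lies 11.1 kb from C8b, was at 199, 237 and 261 TPM in controls against 219, 328 and 450 TPM in knockout libraries. Here the lowest knockout library lay within the control range, and the log2 fold change of 0.46 did not pass (limma adjusted p = 0.259). The ratio of C8b to C8a was 0.691 to 0.751 in controls against 0.982 to 1.22 in knockout libraries. C8g, the lipocalin subunit of C8, was at 578, 591 and 471 TPM against 817, 654 and 624 TPM without overlap (log2 fold change 0.35, limma adjusted p = 0.193).

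C9, the subunit that polymerises into the pore, was at 215, 243 and 361 TPM in controls against 374, 341 and 771 TPM in knockout libraries (log2 fold change 0.79 ± 0.33, limma adjusted p = 0.154). C6, a pore subunit, was at 21.0, 18.5 and 13.4 TPM against 9.76, 24.7 and 54.6 TPM, the widest relative spread of the terminal genes (log2 fold change 0.44 ± 0.53, limma adjusted p = 0.609). The highest library for C6, C8a, C8b and C9 was knockout replicate 3. Without it the log2 fold changes were -0.15 for C6, 0.21 for C8a, 0.42 for C9 and 0.81 for C8b, whose limma adjusted p was then 0.0378. Hc, which encodes C5, was the terminal gene below 0, at 313 to 386 TPM in control and 237 to 354 TPM in knockout libraries (log2 fold change -0.27, limma adjusted p = 0.337).

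**Figure D3:**
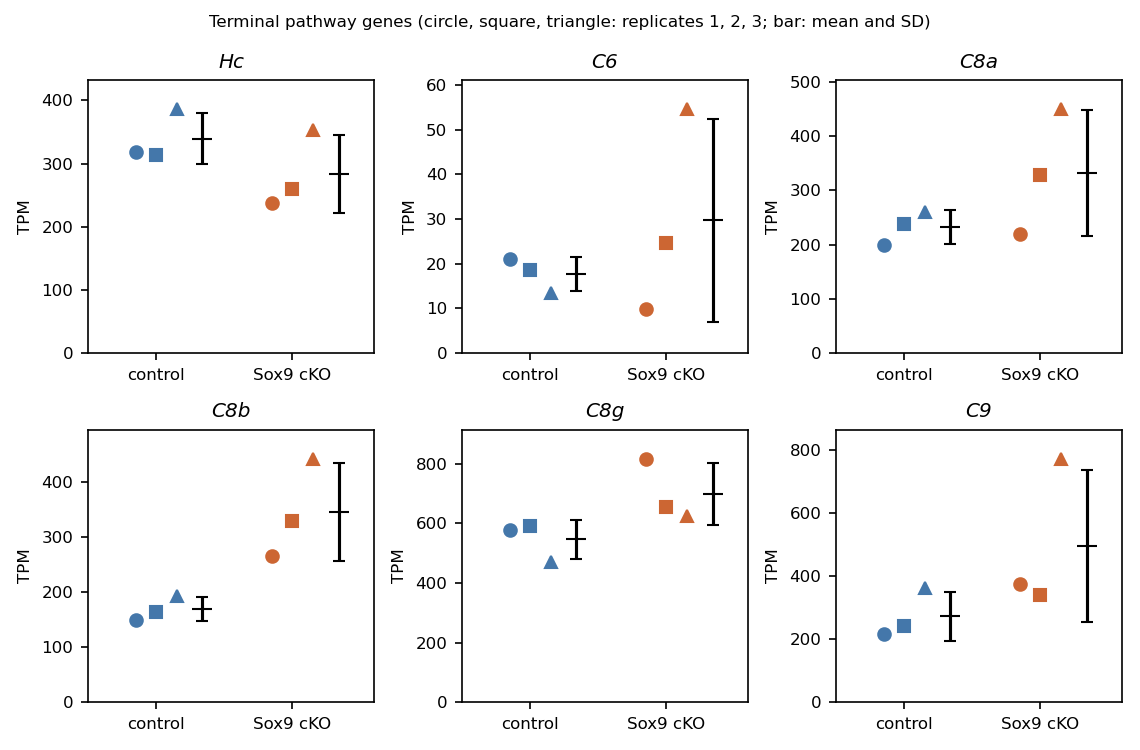
TPM in each library of the 6 terminal pathway genes, with the mean and SD of 3 libraries a group. Both groups are separated for C8b and C8g, and knockout replicate 3 is the highest library for C6, C8a, C8b and C9.

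Soluble regulators hold the cascade in check. Cfi, the protease that inactivates C3b and C4b, was at 707, 775 and 925 TPM in controls against 521, 480 and 629 TPM in knockout libraries. The groups did not overlap, and the log2 fold change of -0.56 missed the threshold (limma adjusted p = 0.0680). C4bp, a cofactor of that protease, was at 542 to 618 TPM in controls against 424 to 565 TPM in knockout libraries (log2 fold change -0.31, limma adjusted p = 0.219). Counted over all 18 complement genes, 7 had all knockout libraries below all controls and 2 had them above, where 33.7% and 3.79% of all tested genes did so.

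Set against control replicate 3 alone, the control library with Y-linked transcripts, the 6 called complement genes kept their direction. This was fixed in advance, because in each of them every knockout library lay on the same side of every control. It is therefore no support for the calls. The log2 difference of the knockout mean from that library was -0.93 for C3, -0.73 for Cfb, -0.75 for C4b, -0.75 for Masp1, -0.46 for Mbl2 and 0.80 for C8b. The 1 library gives no spread of its own, so these values are a description. With Xist status as a second term in the fit, which estimates this same difference and takes its spread from the libraries of like Xist status, 0 of the 40 members were called by limma and 13 had an unadjusted p under 0.05. The fit without control replicates 1 and 2 estimates the same difference again, assumes that the lone control varies like the knockout libraries, and also called 0 members, with 6 at an unadjusted p under 0.05. Leaving out any 1 control library also ended all 6 calls, with no change of sign, which the same separation fixed in advance. Of the 40 members, 10 to 13 then had an unadjusted p under 0.05. The share of all tested genes at that level was not computed for any of these fits. The unadjusted counts therefore cannot be set against it and say nothing particular about the members.

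Coagulation gave 0 calls of 22 in limma. At an unadjusted p under 0.05 there were 12 of 22 genes, all lower, beside 27.2% of all tested genes that were lower at that level. Under median centring this count fell to 0 of 22, under rescaling without the 50 most abundant genes it was 7, and under quantile normalization 11. The share of all tested genes at that level was not computed under these scalings. The log2 fold changes ran from -0.80 for Pros1 to 0.15 for F11, and the smallest adjusted p was 0.0633, for F5. In 16 of 22 genes the groups did not overlap, with the knockout libraries lower, and in 0 were they higher. Of all tested genes, 33.7% and 3.79% did so. The summed TPM of the 22 genes was 28604 to 33047 in control and 21105 to 24057 in knockout libraries.

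By mean over all 6 libraries the fibrinogen chains are the 3 most abundant members, although C3 was above Fga in the control mean. Fgb, the beta chain, was measured at 6512, 6233 and 8079 TPM in controls against 4504, 4494 and 5253 TPM in knockout libraries. Control replicate 3 was the highest, and the highest knockout library lay below the lowest control. The means of 6942 ± 995 and 4750 ± 435 TPM gave a log2 fold change of -0.54 ± 0.19 (limma adjusted p = 0.104).

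Fgg, the gamma chain, was at 5087, 5094 and 6027 TPM in controls against 3669, 3768 and 4516 TPM in knockout libraries (log2 fold change -0.44 ± 0.18, limma adjusted p = 0.146). Fga, the alpha chain, was at 4144, 4130 and 5107 TPM in controls against 2656, 3205 and 3550 TPM in knockout libraries (log2 fold change -0.51 ± 0.19, limma adjusted p = 0.118). For both chains the groups did not overlap either, and none of the 3 chains passed the test over all genes. The genes lie in a row on chromosome 3, and the gap between Fga and Fgb is 6.51 kb. The ratio of Fga to Fgb was 0.644 ± 0.0165 in control and 0.660 ± 0.0633 in knockout libraries, and that of Fgg to Fgb 0.781 ± 0.0356 and 0.838 ± 0.0225. The 3 chains together took 1.68 ± 0.209% of all TPM in control and 1.19 ± 0.129% in knockout libraries. F13b, the carrier subunit of the factor that crosslinks fibrin, was at 204 to 213 TPM against 164 to 176 TPM, without overlap (log2 fold change -0.31, limma adjusted p = 0.110).

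**Figure D4:**
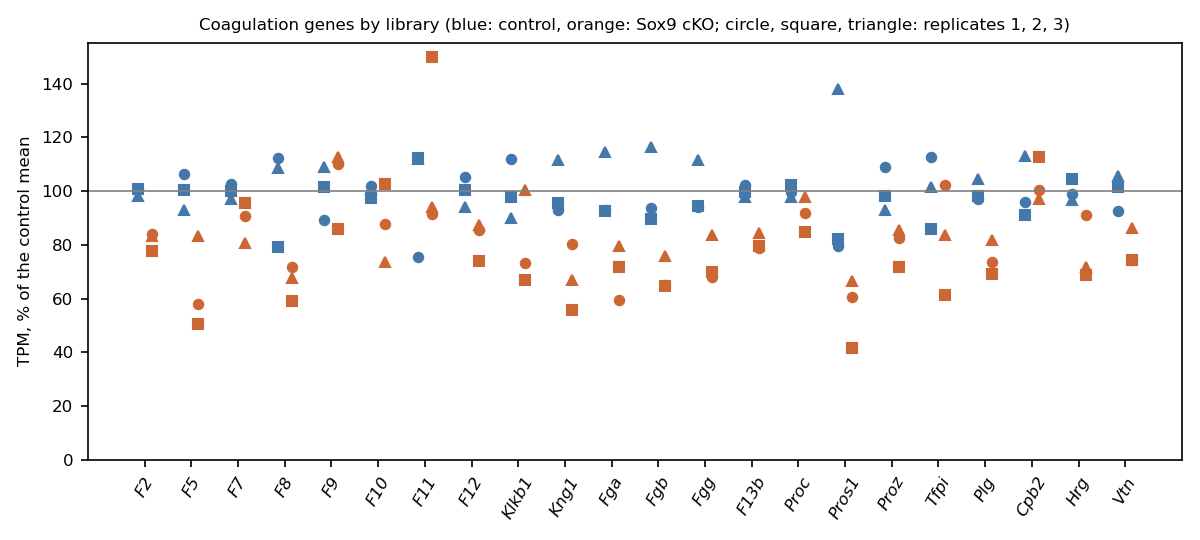
TPM of the 22 coagulation genes in each library as a percent of the gene's control mean, with 1 point a library and a line at the control mean. In 16 genes all 3 knockout points lie below all 3 control points, and in 0 genes do they all lie above, where 33.7% and 3.79% of all tested genes did so.

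Among the genes of thrombin generation, F2 encodes prothrombin. It was at 1687, 1687 and 1641 TPM in controls against 1404, 1298 and 1394 TPM in knockout libraries, without overlap, and its log2 fold change was -0.29 (limma adjusted p = 0.183). F5, the cofactor of factor Xa, was at 211, 199 and 185 TPM in controls against 115, 100 and 166 TPM in knockout libraries. All knockout values were below the controls, with replicate 3 nearest to them, and limma put the log2 fold change at -0.67 ± 0.19 (adjusted p = 0.0633). F8, a cofactor that in the liver comes mainly from endothelial cells, was at 3.94 to 5.59 TPM against 2.94 to 3.58 TPM (log2 fold change -0.52, limma adjusted p = 0.109). The proteases F7, F9, F10 and F11 had log2 fold changes of -0.17, 0.03, -0.19 and 0.15, and F7 alone of these 4 had groups that did not overlap. F7, F10 and Proz lie next to each other on chromosome 8, with gaps of 1.5 and 4.24 kb.

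In the contact system, Kng1 encodes kininogen, the precursor of bradykinin. It was measured at 2767, 2837 and 3317 TPM in controls against 2390, 1655 and 1991 TPM in knockout libraries, which did not overlap. The means of 2973 ± 299 and 2012 ± 368 TPM gave a log2 fold change of -0.57 ± 0.19 (limma adjusted p = 0.0884). Its near copy Kng2, which shares 10.6% of the stretches of Kng1, was at 409, 409 and 544 TPM against 344, 232 and 261 TPM (log2 fold change -0.71, limma adjusted p = 0.0561), and the division of reads between the pair is uncertain.

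F12, the protease that starts contact activation, was at 416 to 465 TPM in controls against 326 to 386 TPM in knockout libraries (log2 fold change -0.28, limma adjusted p = 0.182). Klkb1, plasma prekallikrein, overlapped between groups at 134 to 166 and 99.3 to 149 TPM, and 42.4% of its stretches are shared with the predicted gene Gm45753, so its value is uncertain. F11, its neighbour at 4.66 kb, had a log2 fold change of 0.15 where Klkb1 had -0.33, and neither passed the test.

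Anticoagulants limit thrombin formation. Pros1, protein S, the cofactor of activated protein C, was at 41.9, 43.3 and 72.7 TPM in controls against 32.0, 21.9 and 35.0 TPM in knockout libraries. The groups did not overlap, control replicate 3 was the highest, and the log2 fold change of -0.80 ± 0.26 was the lowest of the 22 (limma adjusted p = 0.0865). Proc, protein C, was at 567 to 593 TPM in control and 491 to 566 TPM in knockout libraries (log2 fold change -0.13). Proz, a cofactor for inhibition of factor Xa, was at 242 to 283 TPM against 187 to 222 TPM without overlap (log2 fold change -0.32). Tfpi, the inhibitor of the tissue factor pathway, was at 6.21 to 8.14 TPM against 4.44 to 7.39 TPM (log2 fold change -0.28).

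Plg, plasminogen, whose active form dissolves fibrin, was at 1872, 1891 and 2015 TPM in controls against 1418, 1333 and 1575 TPM in knockout libraries. The groups did not overlap, the means were 1926 ± 77.8 and 1442 ± 123 TPM, and limma put the log2 fold change at -0.42 ± 0.14 (adjusted p = 0.0980). Vtn, vitronectin, an adhesion protein that also binds the terminal complement complex, was at 2437, 2670 and 2782 TPM against 1959, 1955 and 2267 TPM, without overlap (log2 fold change -0.35, limma adjusted p = 0.167). Hrg, a histidine-rich plasma protein that binds plasminogen, was at 857 to 927 TPM against 610 to 808 TPM (log2 fold change -0.38, limma adjusted p = 0.137). Cpb2, a carboxypeptidase that slows fibrinolysis, overlapped between groups at 502 to 621 and 533 to 620 TPM (log2 fold change 0.05).

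Against control replicate 3 alone, 17 of the 22 coagulation genes had all 3 knockout libraries below it and 0 had all above, with a median log2 difference of -0.29. The 18 complement genes had a median of -0.15, with 9 all below and 3 all above, namely C4a, C8b and C8g. Of all tested genes, 47.9% had all 3 knockout libraries below that control and 13.3% above, with a median of -0.21. Control replicate 3 itself differed in log2 terms from the mean of control replicates 1 and 2. The difference ran from -0.22 for Klkb1 to 0.76 for Pros1 in coagulation, and from -0.54 for C6 to 0.66 for C9 in complement. Cpb2 was among the 17 although its fold change against all controls was 0.05. This control also stood highest in acute phase genes, as given below.

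**Figure D5:**
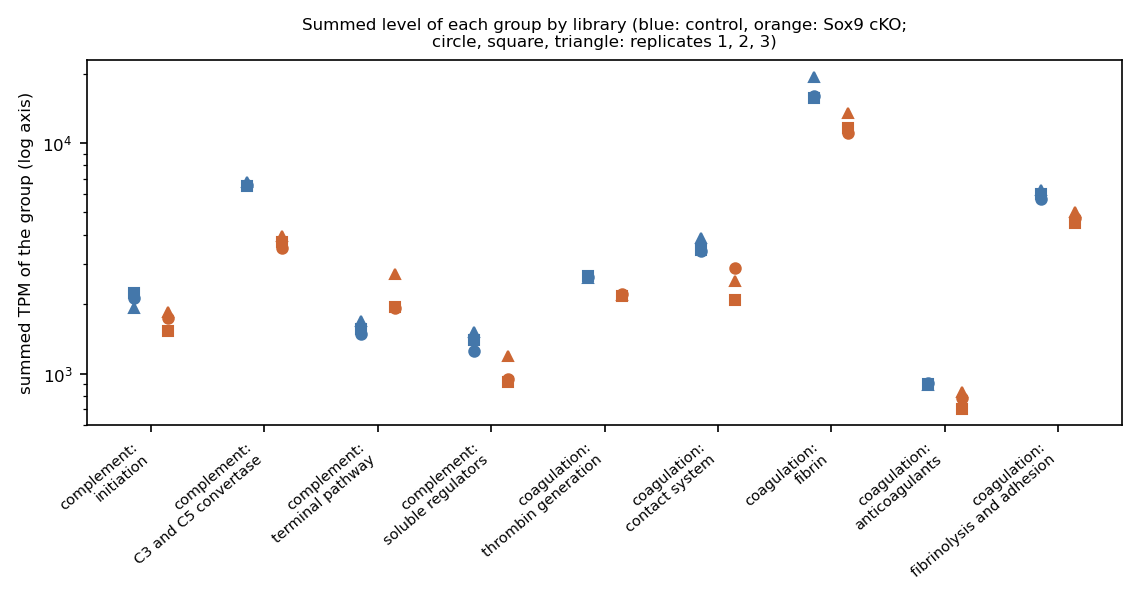
Summed TPM of each role group in each library on a logarithmic axis. The terminal pathway is the group with higher sums in knockout libraries (1921 to 2695 TPM against 1483 to 1685), and the convertase genes show the lowest knockout sums relative to control (3509 to 3935 against 6531 to 6769).

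By length-corrected level over all 6 libraries, Fgb was the highest member at a mean of 5846 TPM, followed by Fgg at 4693, Fga at 3799 and C3 at 3658 TPM. C4a was the lowest at 1.03 TPM. Fga and C3 were close together in mean, and their order varied by library: C3 was above Fga in control replicates 1 and 2 and below it in control replicate 3 and in all 3 knockout libraries. The 40 members together summed to 40053 to 44950 TPM in control and to 29195 to 33737 TPM in knockout libraries.

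Other genes of the complement system gave 10 lower and 1 higher calls of 29 tested from 37 listed, with a median log2 fold change of -0.45. Over all tested genes, 8.76% were called lower and 0.821% higher. The lower calls with the smallest adjusted p were Itgb2, Itgax and Itgam, the leukocyte integrin chains of complement receptors, and C1qb, a chain of C1q, which macrophages make. Itgb2 was at 9.93, 9.44 and 6.77 TPM in controls against 2.36, 1.87 and 3.82 TPM in knockout libraries (log2 fold change -1.56, limma adjusted p = 0.0161). C1qb was at 158, 186 and 94.1 TPM against 51.8, 38.3 and 71.6 TPM (log2 fold change -1.42, limma adjusted p = 0.0308). In both genes the groups did not overlap, which is no further support, as both were picked by small adjusted p. Kupffer cell and neutrophil markers were lower in the same libraries, as given above. The remaining lower calls were C1qa, C1qc, Cfp, Clu, Colec10 and Colec11, and the gene called higher was Susd4, a membrane regulator, at 0.11 to 0.28 TPM in control and 0.74 to 3.00 TPM in knockout libraries. These were named after their values were seen.

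Other genes of coagulation gave 9 lower and 0 higher calls of 29 tested from 35 listed, with a median log2 fold change of -0.54. Over all tested genes, 8.76% were called lower and 0.821% higher. At an unadjusted p under 0.05, 14 of the 29 were lower, beside 27.2% of all tested genes. Anxa2, a cell-surface cofactor of plasminogen activation, was at 45.9, 46.9 and 49.7 TPM in controls against 23.6, 24.1 and 19.4 TPM in knockout libraries (log2 fold change -1.07, limma adjusted p = 0.00668). Fgl1, a fibrinogen-related protein made by hepatocytes, was at 874, 1074 and 1641 TPM against 519, 437 and 579 TPM (log2 fold change -1.18, limma adjusted p = 0.0280). Gas6, a vitamin K-dependent ligand of TAM receptors, and Thbs1, thrombospondin, had log2 fold changes of -1.69 and -1.22 (limma adjusted p = 0.0206 and 0.0219). In each of these 4 genes every knockout library lay below every control, as in 33.7% of all tested genes. The 4 were picked by small adjusted p, so this separation is no further support.

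Of 15 tested transcription factors and receptors known to act on such genes in hepatocytes, 3 were called lower and 0 higher. Over all tested genes, 8.76% were called lower and 0.821% higher. At an unadjusted p under 0.05, 5 were lower, beside the 27.2% of all tested genes given above, and 2 were higher. The share of all tested genes on the higher side at that level was not computed, so the 2 cannot be set against it. Stat3, the transducer of the acute phase signal, was at 50.8, 50.4 and 65.1 TPM in controls against 28.1, 22.4 and 32.0 TPM in knockout libraries (means 55.4 ± 8.40 and 27.5 ± 4.82 TPM, limma adjusted p = 0.0183). Stat5b and Esr1, which act in growth hormone and oestrogen signalling, had log2 fold changes of -0.71 and -1.26 (limma adjusted p = 0.0370 and 0.0138). The 2 on the higher side were Cebpa, a C/EBP factor, at 193, 213 and 122 TPM against 241, 257 and 240 TPM without overlap (log2 fold change 0.52, limma adjusted p = 0.143), and Foxa1, a forkhead factor (log2 fold change 0.60, limma adjusted p = 0.167), both named after their values were seen. Acute phase genes outside the 40 gave 8 lower and 0 higher calls of 19 tested, beside the same shares of all tested genes. Their median log2 fold change was -1.01. Their summed TPM was 21449, 21587 and 32598 in the control libraries, so control replicate 3 stood above the others, and 12992 to 15323 in knockout libraries. Serpins gave 6 lower and 2 higher calls of 18 tested, beside the same shares of all tested genes. The 2 called higher were Serpina1c and Serpina3k. The summed TPM of the serpins was 35369 to 36586 in control and 49743 to 72398 in knockout libraries, without overlap. The part of this rise in the TPM values of the members was not tested.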

How the data were processed

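Read processing is known from the series' design text and, for tool versions, per the submitters' processing notes: trimming with Trim Galore 0.5.0 (cutadapt 1.16), alignment by STAR 2.6.0a against mouse build mm10, and RSEM 1.3.1 for expression. Which gene annotation and strand setting the authors used is not given in the sources used here, so overlapping antisense genes are uncertain. What the authors deposited is 1 table of TPM for 6 libraries, 3 a group. TPM corrects estimated reads for gene length and fixes each library's total, so depth is unknown, and a change in abundant genes shifts all others.

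For testing, a gene needed a mean of 0.5 TPM or more over the libraries. The values, as log2(TPM + 0.5), a scale that understates the change of low genes, went into 1 limma fit across all genes (limma 3.58.1, R 4.3.3) with a variance trend and no term but group. All 12539 two-sided p-values were adjusted together (Benjamini-Hochberg, threshold 0.05). Errors are SE of the fit or SD of 3 libraries. The fit was first tested on simulated data with noise that was independent between genes and libraries. These data held no shared sex-linked difference and no shift of whole libraries, so that test does not bear on either. The members and lists were chosen with earlier results of these data known. Every member was described, with full values for members past the threshold, the 10 most abundant, C4a, C4b, Kng1 and Kng2. From the other lists, up to 4 genes past the threshold with the smallest adjusted p were named, some without values by library. For acute phase genes and serpins, counts and summed TPM are given, with the median log2 fold change of the acute phase genes and the names of the serpins called higher. Positions and shared 75-base stretches came from the GENCODE annotation of GRCm38, promoters from RefSeq. Summaries and figures used Python 3.11.15 and matplotlib 3.10.9. Alternatives were other pseudocounts, filters, scalings and weights, a replicate block, a second term for sex (Xist over 10 TPM) and leaving out libraries.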

Additional observations from a re-analysis of the deposited data

How the results depend on the processing

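The 6 called members kept their sign in 18 alternatives: C3 and C8b were called in 11 of them, Cfb and Masp1 in 10, C4b in 9 and Mbl2 in 4, with log2 fold changes of -1.10 to -0.64 for C3 and 0.80 to 1.28 for C8b. Complement members called higher were 0 under quantile normalization, with the sex-marker term and without both Xist libraries. Complement members called lower were 0 under median centring, with the sex-marker term and without both Xist libraries, 2 under quantile normalization and 1 with the replicate block. Coagulation members called lower were 1 (Fgg) under quantile normalization and 5 (F5, F13b, Fga, Fgb and Plg) with array weights.

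Other complement genes called higher were 0 without a filter, with the filter at 5 TPM, under median centring and quantile normalization, with the sex-marker term and without both Xist libraries, and 2 with array weights. Those called lower were 5 without a filter and under rescaling without the 50 most abundant genes, 1 under median centring and quantile normalization, 3 with the replicate block, and 0 with the sex-marker term and without both Xist libraries. Other coagulation genes called higher were 1 with the replicate block, and those called lower 3 with the filter at 5 TPM, 4 under rescaling without the 50 most abundant genes and with the replicate block, 2 under median centring and quantile normalization, 1 with the sex-marker term and 0 without both Xist libraries. Over all genes 21 were higher and 49 lower with the sex-marker term. Fits without libraries rest on fewer samples, and otherwise the cause was not tested.

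The log2 fold change of Sox9 missed the threshold at -0.88 under median centring, -0.66 under quantile normalization, -1.16 with the replicate block and -1.10 with the sex-marker term and without both Xist libraries. Leaving out 1 library at a time gave 0 to 1 complement members higher and 0 to 6 lower, 0 to 1 coagulation members lower, 0 to 1 other complement genes higher and 0 to 12 lower, 1 to 5 other coagulation genes lower, and -1.35 to -0.97 for Sox9, whose call was lost in 5 of these 6 fits (limma adjusted p = 0.0620 to 0.115) and held without knockout replicate 3. Without any 1 control, 0 complement members were called, and without knockout replicate 1 there were 1 higher and 1 lower. The labels do not say that replicate numbers pair the samples. Same-numbered libraries correlated at -0.045, 0.0035 and -0.027 in their deviations from group means, which cannot show whether they were paired. As the labels give these libraries only a number in common, the replicate block was used as an alternative. It moved the calls over all genes to 85 higher and 563 lower. Of the members not called, 12 changed sign in at least 1 alternative. Depth is unknown, so the precision of low members such as C4a cannot be given.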
